A study of Mus musculus with 9 samples.

Results

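Ribosome-bound mRNAs of 32 genes of cholesterol and fatty acid synthesis were compared between astrocyte perivascular endfeet and whole astrocytes. The genes were taken from a list of names and not by a rule on their values, although the list was chosen with earlier results of these data known. They are 32 of the 22072 genes with counts. By role, 7 encode enzymes from acetyl-CoA to farnesyl diphosphate, 11 act from squalene to cholesterol, 6 regulate the pathway or carry sterol, and 8 belong to the synthesis of fatty acids. All 9 libraries came from mice of 2 months of the strain Aldh1L1 JD130, with the genotype tg:Aldh1L1-L10aGFP. In these mice the ribosomal protein L10a fused to eGFP is driven by the Aldh1l1 promoter, which is used as specific to astrocytes, and translating ribosome affinity purification (TRAP) pulls down the tagged ribosomes with their mRNAs through an antibody to GFP. Whole astrocyte TRAP (n = 3 libraries) started from 1 brain per library, freed of its choroid plexus. Endfeet TRAP (n = 6 libraries) started from mechanically purified brain vessels of 8 mice per library, with the endfoot membranes that stay attached to them, and the vessel buffers held cycloheximide, which arrests translation. Each endfeet library is therefore a pool of animals, while each whole astrocyte library is 1 animal.

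Cholesterol does not cross the blood-brain barrier in quantity, so the brain makes its own, and astrocytes are a main source in the adult. Synthesis starts from cytosolic acetyl-CoA, which is built into mevalonate and farnesyl diphosphate, then into squalene, and then into sterols, while the same acetyl-CoA feeds acetyl-CoA carboxylase and fatty acid synthase. The SREBP transcription factors, encoded by Srebf1 and Srebf2, switch on both branches. They are escorted to the Golgi by SCAP for cleavage and retained in the endoplasmic reticulum by the INSIG proteins when sterol is ample.

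The deposited values are raw counts per transcript, each gene is represented by its most counted transcript, and levels are given as CPM, the count relative to the library's gene counts after TMM scaling. Libraries of whole astrocyte TRAP held 35956972 to 43487888 gene counts, and those of endfeet TRAP from 2318745 (library 6) to 13445661. A floor of 3 counts, which covers counting error only, stood for 0.0659 to 0.0812 CPM in the former and for 0.197 to 1.37 CPM in the latter. Libraries of the same group agreed far better in whole astrocyte TRAP (correlation of log CPM across genes 0.989 to 0.992) than in endfeet TRAP (0.656 to 0.873). The endfeet libraries also held mRNAs of vascular cells. The summed level of 10 endothelial markers was 3275 to 4980 CPM in endfeet TRAP and 5.58 to 7.998 CPM in whole astrocyte TRAP, where Ly6c1 had 0 counts in every library. The 10 mural markers summed to 3574 to 8117 CPM against 36.5 to 38.1 CPM, and 8 markers of fibroblasts to 780 to 1542 CPM against 29.1 to 42.5 CPM. For 10 microglial and macrophage markers the sums were 231 to 370.1 CPM and 22.7 to 26.9 CPM. The 8 ependymal and choroid plexus markers, led by Ttr, summed to 6832 to 89570.5 CPM against 78.2 to 1521 CPM, with library 1 highest. The 20 astrocyte markers, led by Slc1a2 in endfeet TRAP, summed to 18729 to 48354 CPM and 40820 to 45776 CPM, and were lowest in endfeet libraries 2 and 3. Single astrocyte markers moved in both directions, 8 with positive and 12 with negative log2 fold changes. The mean of Slc1a2 was 15315 CPM in endfeet TRAP and 8048 CPM in whole astrocyte TRAP. Means of Glul were 1272 and 12181 CPM, and those of Aldoc 681 and 10882 CPM. Markers of neurons (9) and oligodendrocytes (11) had lower sums in endfeet TRAP, of 1183 to 2109 CPM against 3818 to 4421 CPM and 253 to 567 CPM against 707 to 716 CPM. The part of mRNAs of these other cells in the differences described here was not tested. Fewer astrocyte processes and less mRNA per process cannot be told apart in such bulk samples.

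The promoter windows of 4 genes are shown because these genes carry the differences that follow: Hmgcs1, Mvd and Acss2, which were lower in endfeet TRAP, and Cyp51, which was higher. The sequences are RefSeq windows of the build GRCm38.p6, each from 250 bases before to 50 bases after a gene start, at chr13:119690101-119690400 (plus strand), chr8:122443373-122443672 (minus strand), chr2:155517793-155518092 (plus strand) and chr5:4104648-4104947 (minus strand). Capitals mark matches on either strand to CCAAT, the box bound by NF-Y, and to TCACNCCAC, a core of the sterol regulatory element bound by SREBPs.
Hmgcs1: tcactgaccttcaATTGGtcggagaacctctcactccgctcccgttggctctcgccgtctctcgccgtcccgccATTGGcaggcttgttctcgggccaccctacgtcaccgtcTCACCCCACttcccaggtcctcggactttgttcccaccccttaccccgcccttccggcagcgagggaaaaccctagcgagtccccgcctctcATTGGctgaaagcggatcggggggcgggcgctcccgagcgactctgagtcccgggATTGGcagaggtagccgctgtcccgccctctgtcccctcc
Mvd: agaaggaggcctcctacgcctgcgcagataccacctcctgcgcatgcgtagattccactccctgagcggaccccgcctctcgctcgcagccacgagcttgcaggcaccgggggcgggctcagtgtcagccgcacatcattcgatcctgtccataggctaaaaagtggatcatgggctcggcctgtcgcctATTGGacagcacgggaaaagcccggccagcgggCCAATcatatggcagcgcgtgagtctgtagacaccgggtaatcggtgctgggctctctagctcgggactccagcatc
Acss2: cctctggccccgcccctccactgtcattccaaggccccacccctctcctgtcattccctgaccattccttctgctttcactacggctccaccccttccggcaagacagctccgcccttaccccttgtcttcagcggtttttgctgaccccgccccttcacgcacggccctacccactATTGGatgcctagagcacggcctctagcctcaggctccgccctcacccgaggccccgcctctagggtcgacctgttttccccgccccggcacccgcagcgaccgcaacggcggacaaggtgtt
Cyp51: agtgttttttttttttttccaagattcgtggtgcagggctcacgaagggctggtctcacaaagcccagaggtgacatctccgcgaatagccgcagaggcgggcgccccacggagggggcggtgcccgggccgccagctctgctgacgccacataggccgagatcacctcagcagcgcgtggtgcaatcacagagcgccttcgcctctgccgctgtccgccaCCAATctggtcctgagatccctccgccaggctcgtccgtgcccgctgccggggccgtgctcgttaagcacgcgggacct
Windows were matched for 26 of the 32 members. The windows of Fdps, Fdft1, Sqle, Stard4, Scd1 and Scd2 were not used here. CCAAT was found for 22 of the 26 members, against 41.1% of the 27025 genes with a window, and not for Acat2, Scap, Acaca and Elovl6. The GC box GGGCGG, bound by Sp1, was also found for 22 members, against 38.2% of all genes, while the E-box CACGTG was found for 5 members, against 8.09%. TCACNCCAC was found for 1 member, Hmgcs1, where it starts 137 bases before the gene start, and for 1.44% of all genes. Both strands were searched, a gene with several starts had several windows, and CCAAT overlapped its own reverse complement in Fasn. A match of letters is a description and not evidence of binding.

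In endfeet TRAP, 7 of the 32 mRNAs were higher and 4 lower than in whole astrocyte TRAP, while 21 stayed outside the threshold, an adjusted p of 0.05 over 14403 genes in edgeR's quasi-likelihood test. Across all genes tested, 34.6% passed, 20.7% as higher and 13.9% as lower, so the share of members was close to that of genes in general. All 32 members had enough counts to be tested. Scaled to the 20 astrocyte markers instead, 8 members were higher and 3 lower, with 21.7% of all genes higher and 5.78% lower. The median log2 fold change was 0.14 over the members and 0.10 over all genes. Every endfeet library lay above every whole astrocyte library for 9 members and below for 9, against 18.9% and 23.8% of all genes. By place in the pathway, the 7 mRNAs from acetyl-CoA to farnesyl diphosphate all had negative log2 fold changes (median -1.71), and the 6 of regulation and transport all had positive ones (median 1.15), although Insig1 and Insig2 changed sign under some alternatives. The 11 from squalene to cholesterol were mixed (7 positive, 4 negative, median 0.91), as were the 8 of fatty acid synthesis (4 positive, 4 negative, median 0.05). These medians are descriptions of the lists and were given no test.

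The counts depended on single libraries. The number of members higher was 3 without whole astrocyte library 1, 1 without library 2, 2 without library 3 and 4 without endfeet library 5. The number lower was 7 without endfeet library 1 and 8 without endfeet library 6. Calls among all genes moved in the same directions in these fits, so the changes were not particular to the members. Genes higher (2987 over all 9 libraries) became 1956, 1757 and 1942 without whole astrocyte libraries 1, 2 and 3, and 2645 without endfeet library 5. Genes lower (2003) became 2640 without endfeet library 1 and 2416 without endfeet library 6. Among members that did not pass over all 9 libraries, leaving out endfeet library 6 brought Acat2, Mvk, Pmvk and Fasn past the threshold as lower and Ebp, Sc5d and Srebf2 as higher. Leaving out endfeet library 1 did so for Hsd17b7, Lss and Fasn as lower and Srebf2 as higher, library 2 for Sc5d, library 4 for Mvk and Fdft1, and library 5 for Idi1 and Nsdhl.

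**Figure D1:**
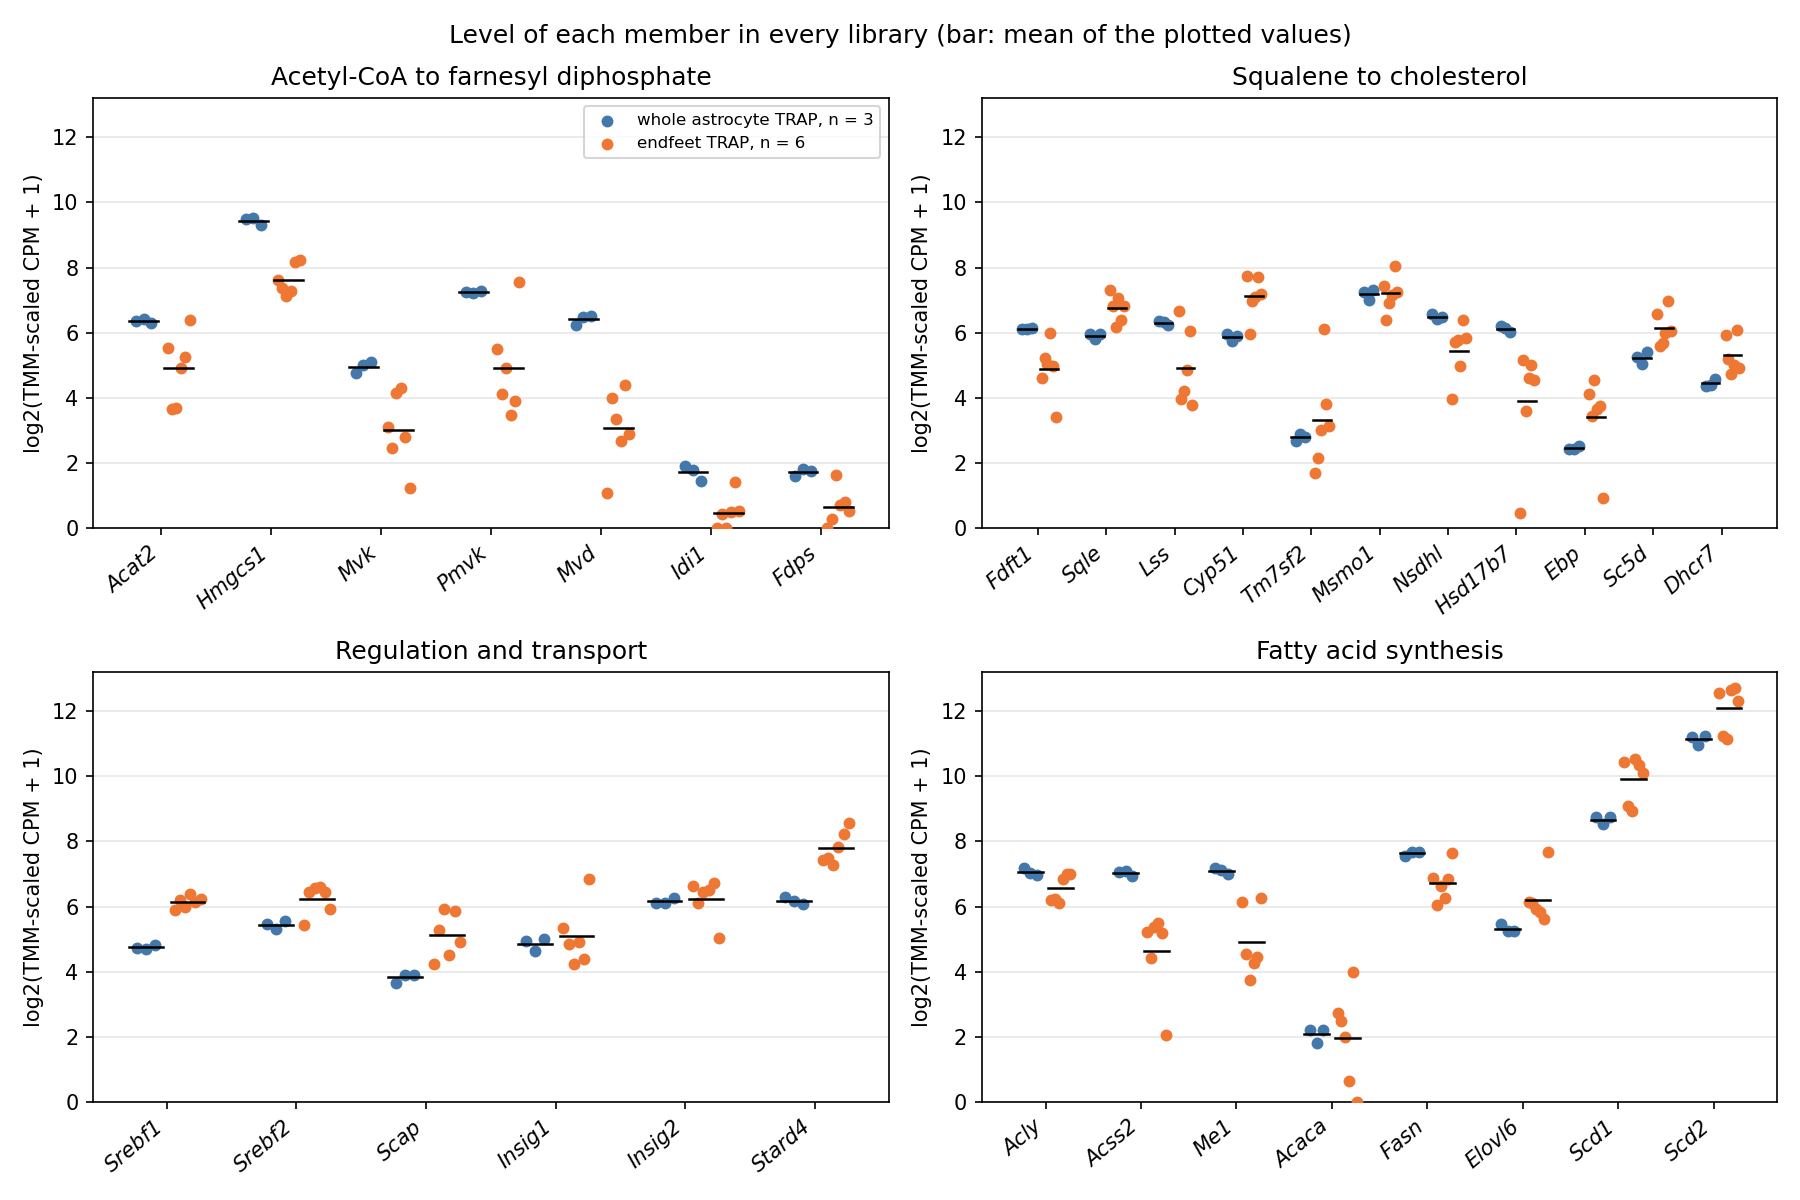
Level of each of the 32 members, as log2(CPM + 1) on the y axis, in the 3 whole astrocyte TRAP libraries (blue) and the 6 endfeet TRAP libraries (orange), by role; black bars are means of the plotted values. In the first panel Hmgcs1, Mvd, Mvk and Idi1 have all endfeet points below the whole astrocyte points, while Acat2, Pmvk and Fdps overlap. The endfeet points spread more widely than the whole astrocyte points, and Scd2 and Scd1 are the highest members in endfeet TRAP.

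**Figure D2:**
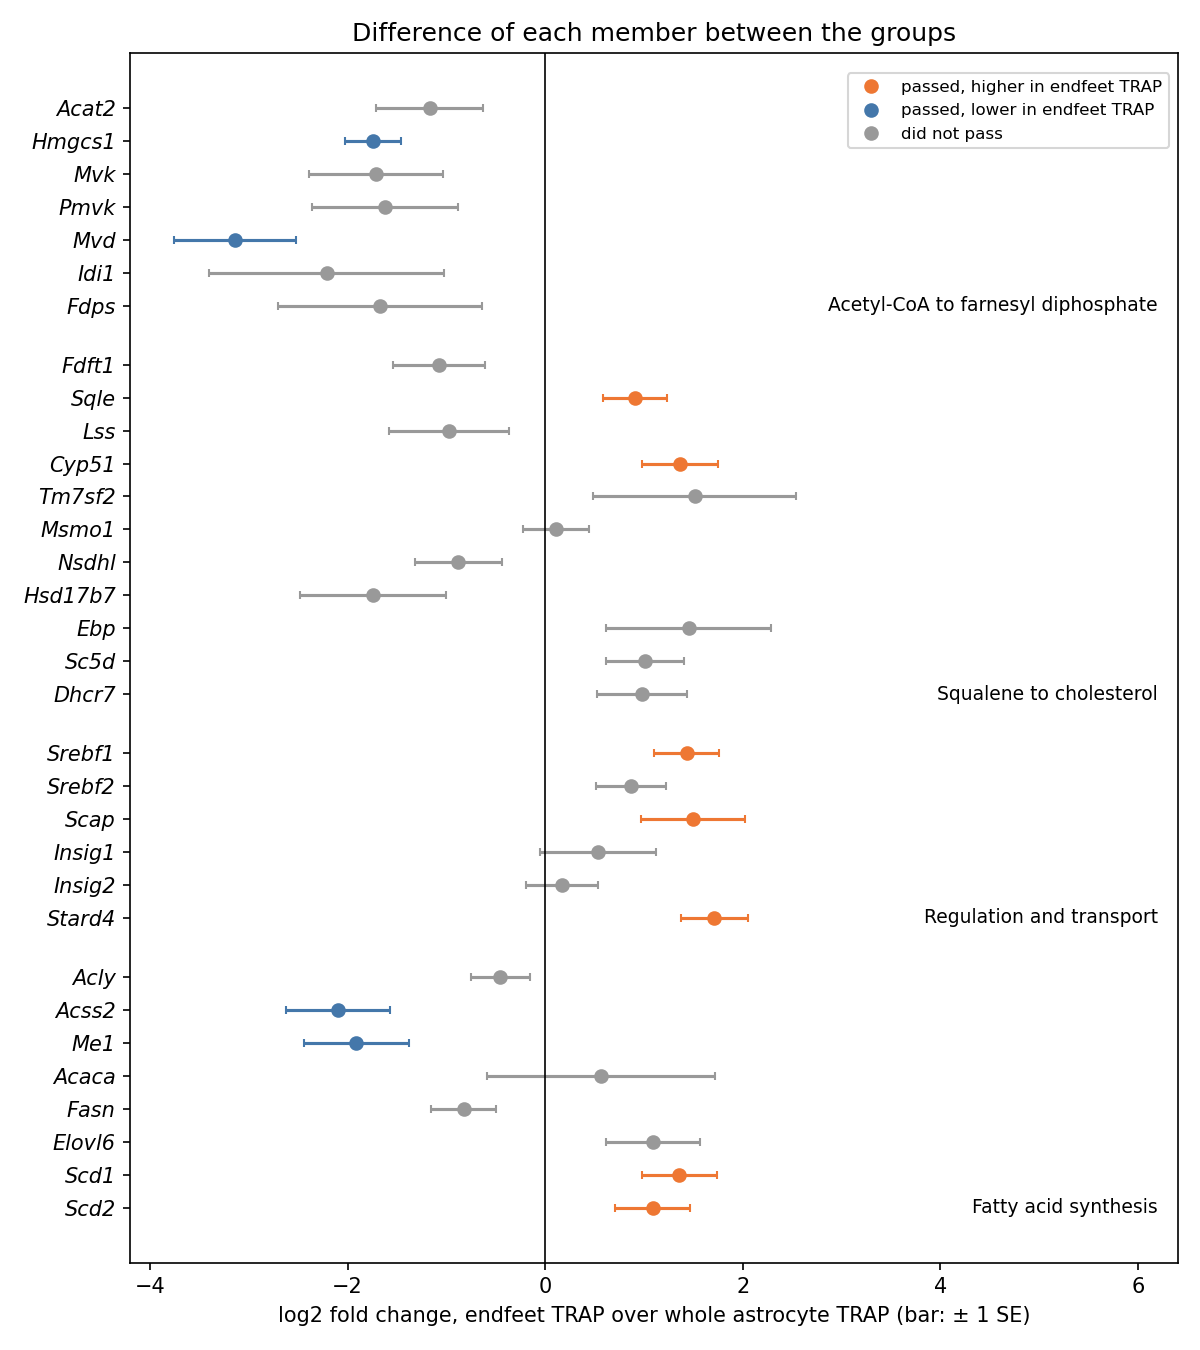
Log2 fold change of endfeet TRAP over whole astrocyte TRAP with 1 SE to each side for the 32 members, in pathway order from top to bottom, coloured by whether the member passed the threshold as higher (7), lower (4) or not (21). All 7 points of the first role lie left of 0 and all 6 of the third role lie right of it, of which Insig1 and Insig2 changed sign under some alternatives.

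Of the 7 mRNAs from acetyl-CoA to farnesyl diphosphate, Hmgcs1 and Mvd were lower in endfeet TRAP and the other 5 did not pass. Hmgcs1 (chromosome 13, 119690379 to 119708260 in mm10), encoding the cytosolic HMG-CoA synthase, had 711, 727 and 633 CPM in whole astrocyte libraries 1 to 3, and 138, 180.2 and 299 CPM as the lowest, median and highest of the endfeet libraries. The highest endfeet value was thus less than the lowest whole astrocyte value. Its log2 fold change was -1.74 (SE 0.280, adjusted p = 3.76e-04 in edgeR's quasi-likelihood test), a level 3.35-fold lower. Mvd (chromosome 8, 122433601 to 122443422), the decarboxylase that makes isopentenyl diphosphate, had 74.0, 88.7 and 90.4 CPM in whole astrocyte TRAP. In endfeet TRAP its lowest, median and highest levels were 1.13, 7.77 and 19.99 CPM, with 6 raw counts in library 1 and 14 in library 6. No endfeet library reached the whole astrocyte range. The log2 fold change of Mvd was -3.14 (SE 0.620, adjusted p = 0.0017 in edgeR), the most negative among the 32 members, or 8.81-fold lower. Both calls held in each of the 9 fits that left out 1 library and in every other alternative that could test them.

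The other 5 mRNAs of this role had negative log2 fold changes that did not pass the threshold. Mvk, the mevalonate kinase, had 26.1, 31.4 and 33.3 CPM in whole astrocyte TRAP and between 1.37 and 18.6 CPM (median 6.84) in endfeet TRAP. All its endfeet libraries lay below, and the log2 fold change was -1.71 (SE 0.680, adjusted p = 0.067 in edgeR), the second nearest outside the threshold. Pmvk, the next kinase of the chain, had 152, 149 and 155 CPM against 10.1 to 187 CPM (median 22.8), and endfeet library 6 alone exceeded the whole astrocyte libraries. Without that library Pmvk passed the threshold as lower (log2 fold change -2.74, adjusted p = 5.77e-04 in edgeR). Acat2, a thiolase that joins acetyl-CoA units, had 81.9, 84.9 and 77.3 CPM against 11.7 to 83.2 CPM (median 33.3), again with library 6 highest, and gave -1.17 (SE 0.543, adjusted p = 0.11 in edgeR). Of the 50-base windows along its transcript, 57.5% also match the near-identical paralog Acat3. Idi1 and Fdps, the isomerase and the farnesyl diphosphate synthase, had few counts throughout. For Idi1 the raw counts were 102, 94 and 79 in the whole astrocyte libraries and 0 to 23 in the endfeet libraries, and Fdps had 76, 95 and 110 against 0 to 32. For Fdps 87.5% and for Idi1 30.9% of the 50-base windows match another annotated gene, mostly processed pseudogenes, with at most 2 mismatches, and the authors discarded reads with several alignments. Reads from such windows may be missing in both groups, and the part of this in the low counts was not tested. The differences of Fdps and Idi1 (log2 fold changes -1.67 and -2.21, adjusted p = 0.23 and 0.17 in edgeR) could not be told from no difference at this depth.

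Summed over the 7 mRNAs, of which Hmgcs1 is the most counted, the level was 1050, 1086 and 993 CPM in whole astrocyte libraries 1 to 3. It was 294, 213, 207, 217, 368 and 578 CPM in endfeet libraries 1 to 6. All endfeet sums were lower, with library 6, the shallowest, nearest to the whole astrocyte range.

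**Figure D3:**
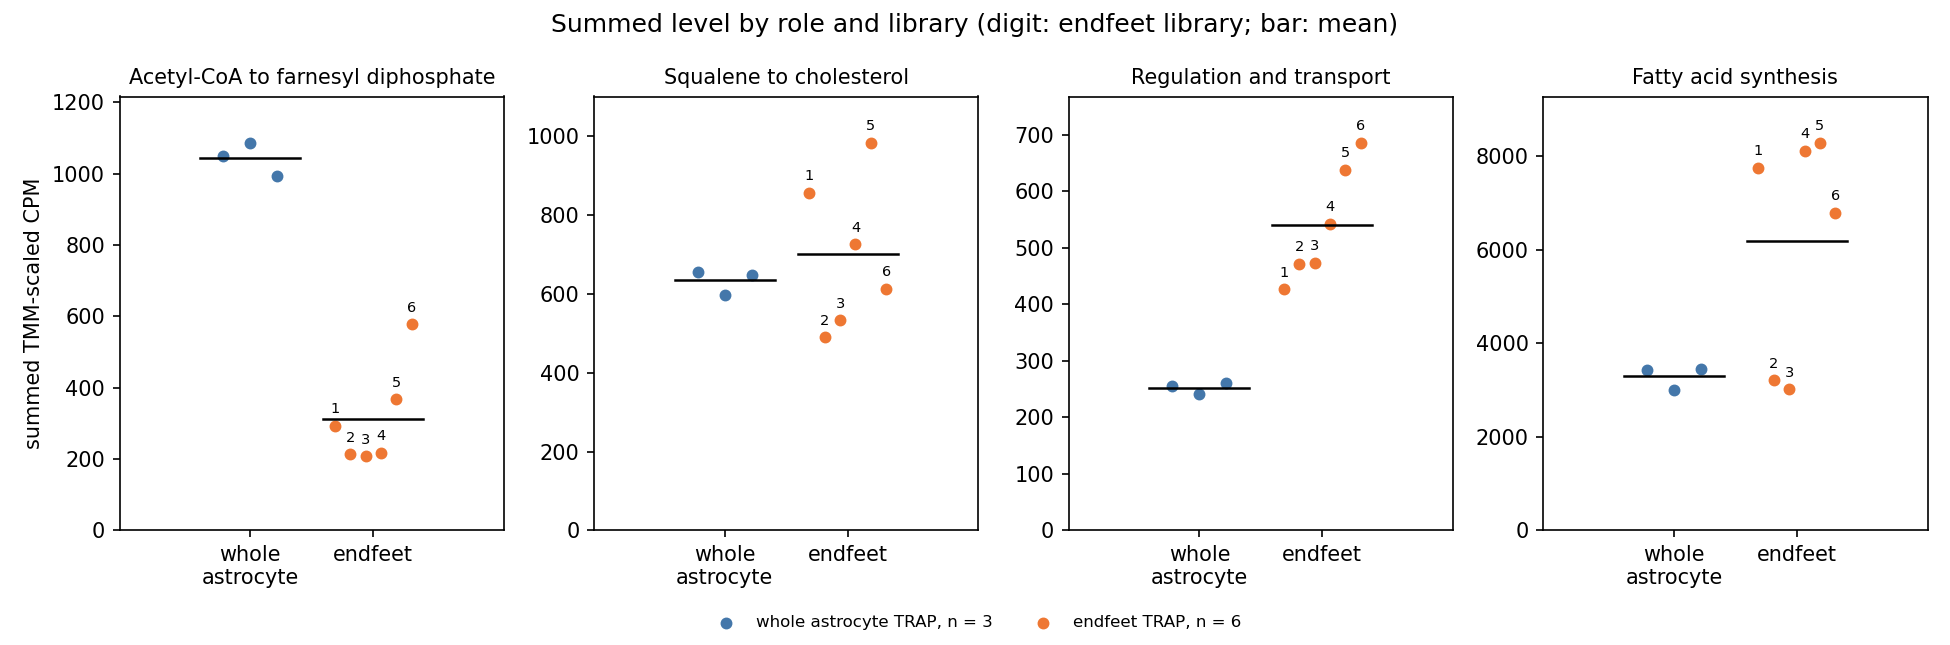
Summed CPM (y axis, from 0) of the members of each role in every library, with whole astrocyte TRAP in blue (n = 3), endfeet TRAP in orange (n = 6, numbered) and means as black bars. The sums do not overlap for the first role (207 to 578 against 993 to 1086 CPM) or the third (427 to 685 against 240.4 to 261 CPM), and overlap for the others.

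From squalene onwards the mRNAs did not move together. Sqle (chromosome 15, 59315077 to 59331192), encoding squalene epoxidase, which adds oxygen to squalene and is a control point of the pathway, had 61.7, 55.2 and 60.7 CPM in whole astrocyte TRAP. Its endfeet levels ran from 70.5 to 159 CPM (median 112), all above. The log2 fold change was 0.91 (SE 0.323, adjusted p = 0.044 in edgeR), or 1.88-fold higher. Cyp51 (chromosome 5, 4081145 to 4104746), the lanosterol demethylase, had 61.0, 52.9 and 58.9 CPM against 61.1 to 213 CPM (median 141). The lowest endfeet library, number 2, just cleared the highest whole astrocyte library, and the log2 fold change was 1.36 (SE 0.382, adjusted p = 0.015 in edgeR), or 2.57-fold higher. Sqle was the member nearest inside the threshold and passed it in 3 of the 9 fits that left out 1 library, losing its call without any of the whole astrocyte libraries or without endfeet library 2, 4 or 5 (adjusted p up to 0.24 in edgeR). Cyp51 passed in 6 of 9, losing its call without any 1 of the whole astrocyte libraries (adjusted p up to 0.10).

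Another 5 members of this role had positive log2 fold changes and did not pass. Sc5d, which sets the double bond of lathosterol, had 37.1, 32.2 and 41.0 CPM against 47.0 to 125 CPM (median 63.9), with every endfeet library above, and was nearest outside the threshold (1.01 on the log2 scale with an SE of 0.395, and edgeR adjusted p = 0.063). Dhcr7, which reduces 7-dehydrocholesterol, had 19.6, 20.1 and 23.1 CPM against 25.4 to 67.3 CPM (median 33.4), also without overlap (0.98, SE 0.456, adjusted p = 0.11). Ebp, the sterol isomerase, had 4.38, 4.34 and 4.79 CPM against 0.914 to 22.3 CPM (median 12.03), with 5 endfeet libraries above and library 6 below on 2 raw counts. Msmo1, the methylsterol oxidase, had 150, 127 and 157 CPM against 83.2 to 263 CPM (median 147), with 2 endfeet libraries above, 2 below and 2 within the whole astrocyte range (log2 fold change 0.11, SE 0.331). Tm7sf2, a sterol reductase, had 5.46, 6.44 and 5.93 CPM against 2.25 to 67.6 CPM (median 7.47). Its high mean rests on endfeet library 4, and the log2 fold change of 1.51 fell to 0.04 without it. That library, with 840 raw counts, also decided which transcript stands for Tm7sf2. Another protein-coding transcript had more raw counts in whole astrocyte TRAP (586, 593 and 625, against 202, 243 and 270) and 2, 91, 163, 128, 252 and 3 in endfeet libraries 1 to 6, and its difference was not tested.

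The remaining 4 members of this role had negative log2 fold changes and did not pass. Fdft1, the squalene synthase, had 68.5, 67.8 and 70.5 CPM against 9.60 to 63.2 CPM (median 31.3), with -1.08 on the log2 scale (SE 0.466, adjusted p = 0.090 in edgeR). Ctsb, on the opposite strand, shares 771 bp of exon with Fdft1, reads of the pair cannot be told apart without strand, and 60.5% of the windows of Fdft1 match another gene. Hsd17b7, a sterol ketone reductase, had 72.8, 69.8 and 64.5 CPM against 0.375 to 34.7 CPM (median 22.99), and Nsdhl, a dehydrogenase of the demethylation steps, had 93.5, 84.2 and 88.2 CPM against 14.6 to 82.8 CPM (median 52.6). Every endfeet library lay below every whole astrocyte library for these 3 genes, with log2 fold changes of -1.74 and -0.88 for Hsd17b7 and Nsdhl (adjusted p = 0.085 and 0.14 in edgeR). Lss, the cyclase that makes lanosterol, had 81.6, 78.8 and 75.1 CPM against 12.8 to 101 CPM (median 22.5), with library 1 above and the other 5 below. Its most counted transcript is annotated as a retained intron, and had 539 raw counts in endfeet library 1. The most counted protein-coding transcript of Lss had 2283, 2289 and 2671 raw counts in whole astrocyte TRAP. In endfeet libraries 1 to 6 it had 236, 127, 234, 250, 622 and 15, and it did not pass either.

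Of the 6 mRNAs of regulation and transport, Srebf1, Scap and Stard4 were higher in endfeet TRAP and the other 3 did not pass. Srebf1 (chromosome 11, 60199089 to 60222581), whose product acts mainly on fatty acid genes, had 25.3, 25.0 and 27.3 CPM in whole astrocyte TRAP and 58.2, 71.0 and 82.8 CPM as the lowest, median and highest endfeet values. The endfeet mean was 69.9 ± 8.95 CPM (SD, n = 6), and all 6 libraries lay above. The log2 fold change was 1.43 (SE 0.328, adjusted p = 0.0045 in edgeR), or 2.70-fold higher, and the call was lost in 1 of 9 fits, without whole astrocyte library 2 (adjusted p = 0.055). Srebf2, whose product acts mainly on sterol genes, had 43.5, 38.3 and 46.1 CPM against 42.6 to 96.1 CPM (median 86.3). Endfeet library 1 was within the whole astrocyte range and the other 5 were above, or 0.87 higher on the log2 scale (SE 0.353, adjusted p = 0.074 in edgeR). Scap (chromosome 9, 110333288 to 110384950), encoding the escort of both, had 11.7, 13.9 and 14.0 CPM against 17.8 to 59.8 CPM (median 33.3), with no overlap. Its log2 fold change was 1.498 (SE 0.525, adjusted p = 0.042 in edgeR), second nearest inside the threshold, and passed in 3 of 9 fits without 1 library (not without any whole astrocyte library, nor without endfeet library 2, 3 or 5, adjusted p up to 0.16). A gene on the opposite strand, 5830462I19Rik, covers 18.6% of the exons of Scap, and reads of the pair cannot be told apart without strand. It had 74, 120 and 168 raw counts in whole astrocyte TRAP, and 64, 114, 261, 56, 136 and 1 in endfeet libraries 1 to 6. Scap had 433, 525 and 639 against 95, 329, 909, 270, 782 and 63. The part of shared reads in the difference of Scap was not tested.

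Stard4, a soluble carrier of cholesterol between membranes, had 76.6, 71.6 and 66.1 CPM in whole astrocyte TRAP and 154 to 376 CPM (median 201) in endfeet TRAP. Even the lowest endfeet library was above the whole astrocyte range by a wide margin. The log2 fold change was 1.71 (SE 0.339, adjusted p = 0.0017 in edgeR), or 3.27-fold higher, and held in all 9 fits without 1 library. Insig1 and Insig2, the retention factors, did not pass. Insig1 had 29.8, 23.9 and 31.3 CPM against 17.9 to 114 CPM (median 28.6), where the high value is endfeet library 6, and Insig2 had 68.4, 67.6 and 76.4 CPM against 31.99 to 105 CPM (median 87.7), where the low value is the same library. Their log2 fold changes were 0.54 (SE 0.589, adjusted p = 0.51 in edgeR) and 0.17 (SE 0.366, adjusted p = 0.75).

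In fatty acid synthesis, Acss2 and Me1 were lower in endfeet TRAP, the desaturases Scd1 and Scd2 were higher, and the other 4 members did not pass. Acss2 (chromosome 2, 155517948 to 155585724), which makes acetyl-CoA from acetate, had 131, 137 and 121 CPM in whole astrocyte TRAP and 3.20, 35.9 and 44.2 CPM as the lowest, median and highest endfeet values. Endfeet and whole astrocyte libraries were clearly apart, and the log2 fold change was -2.10 (SE 0.528, adjusted p = 0.0080 in edgeR), or 4.28-fold lower, in every fit without 1 library. Acly, which makes acetyl-CoA from citrate, had 145, 131 and 124 CPM against 67.7 to 128 CPM (median 94.2). Its groups overlapped and the difference of -0.45 on the log2 scale (SE 0.302, adjusted p = 0.26 in edgeR) did not pass. Me1 (chromosome 9, 86581371 to 86695953), the cytosolic malic enzyme that makes NADPH, had 144, 139 and 126 CPM against 12.4 to 75.4 CPM (median 21.6). All endfeet libraries were lower, with libraries 1 and 6 highest among them. The log2 fold change of Me1 was -1.91 (SE 0.530, adjusted p = 0.014 in edgeR), or 3.76-fold lower, and the call was lost without whole astrocyte library 1 (adjusted p = 0.057), when scaled to the astrocyte markers (adjusted p = 0.13) and with the run of file numbers as a covariate (adjusted p = 0.059). Of its 50-base windows, 56.7% match another gene, mostly a processed pseudogene.

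Fasn, the fatty acid synthase itself, had 187, 201 and 202 CPM in whole astrocyte TRAP and 64.6 to 200.2 CPM (median 105) in endfeet TRAP. Library 6 reached the whole astrocyte range and the other 5 lay below, which gave -0.83 on the log2 scale (SE 0.331, adjusted p = 0.069 in edgeR). The difference passed as lower without endfeet library 6 (log2 fold change -1.07, adjusted p = 0.0055 in edgeR) or without library 1 (-0.88, adjusted p = 0.046). Acaca, the acetyl-CoA carboxylase that commits carbon to this branch, had only 136, 95 and 164 raw counts against 0 to 202, again on a transcript annotated as a retained intron, and did not pass (0.56, SE 1.15, adjusted p = 0.74 in edgeR). Its most counted protein-coding transcript had 171, 152 and 214 raw counts against 13 to 55, with a log2 fold change of -0.10 (adjusted p = 0.93). Elovl6, which lengthens palmitate, had 43.5, 37.4 and 36.6 CPM against 48.1 to 202 CPM (median 63.6). Its endfeet libraries were all higher, library 6 by far, and it did not pass (1.09 on the log2 scale with an SE of 0.478, and edgeR adjusted p = 0.094).

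Scd1 and Scd2 encode stearoyl-CoA desaturases, which turn saturated into monounsaturated fatty acids. Scd2 (chromosome 19, 44293674 to 44306864) had 2349, 1998 and 2419 CPM in whole astrocyte TRAP and 6019, 2414, 2255, 6344, 6631 and 5094 CPM in endfeet libraries 1 to 6. Libraries 2 and 3 were within the whole astrocyte range, and the other 4 were above it. Scd1 (chromosome 19, 44394455 to 44407879) had 425, 367 and 428 CPM against 1374, 541, 486, 1464, 1299 and 1095 CPM. All 6 endfeet libraries were above, again with libraries 2 and 3 lowest, which are also the libraries with the lowest sum of astrocyte markers. That sum is led by Slc1a2 in endfeet TRAP, while other astrocyte markers, such as Gfap and Hepacam, were lowest in library 6. The log2 fold changes were 1.09 for Scd2 (SE 0.379, adjusted p = 0.041 in edgeR) and 1.36 for Scd1 (SE 0.378, adjusted p = 0.014), or 2.13-fold and 2.56-fold higher. The call of Scd2 held only in the 2 of 9 fits without endfeet library 2 or 3, with adjusted p up to 0.20 in the other 7. The call of Scd1 held in 7 of 9, being lost without whole astrocyte library 2 or 3 (adjusted p up to 0.0996). Windows of 50 bases that match another gene made up 12.02% of Scd1 and 9.51% of Scd2. Scd2 took 40.5% to 45.1% of the summed CPM of the 32 members in whole astrocyte TRAP and 53.2% to 66.1% in endfeet TRAP. Without both desaturases, the 30 other members summed to 2518 to 2614 CPM in whole astrocyte TRAP and to 1428 to 2486 CPM in endfeet TRAP, so that all endfeet sums were lower.

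Ratios of 2 members within a library, taken from counts plus 0.5, do not depend on its scaling, and 4 pairs were tested by exact permutation of the group labels (two-sided, 84 arrangements), with p adjusted over the 4 ratios. The log2 ratio of Scd1 to Scd2 was -2.47, -2.44 and -2.50 in whole astrocyte TRAP and -2.35 to -2.12 in endfeet TRAP. Every endfeet library was above, by 0.27 on average (exact p = 0.0119, the smallest that 84 arrangements allow, adjusted p = 0.0476). With any 1 library left out the difference was between 0.26 and 0.30, and the exact test, with fewer arrangements, gave adjusted p from 0.0714 to 0.143. For Srebf1 to Srebf2 the log2 ratio was -0.78, -0.61 and -0.76 against -0.61 to 0.45, and Srebf1 was above Srebf2 in endfeet libraries 1 and 6. Endfeet library 3 (-0.613) barely cleared whole astrocyte library 2 (-0.614). The difference of 0.61 between the group means did not pass after adjustment (exact p = 0.0476, adjusted p = 0.0952). Acly to Acss2 was near 0 in whole astrocyte TRAP (0.14, -0.06 and 0.04) and 0.73 to 5.23 in endfeet TRAP. All endfeet libraries favoured Acly, and the group means differed by 1.96 (exact p = 0.0714, adjusted p = 0.0952). The highest ratio was that of endfeet library 6, where Acss2 had 7 raw counts, and the next highest was 1.84 in library 5. Insig1 to Insig2 overlapped between the groups, with -1.20, -1.50 and -1.29 against -2.39 to 1.82 (difference 0.16, exact p = 0.94).

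**Figure D4:**
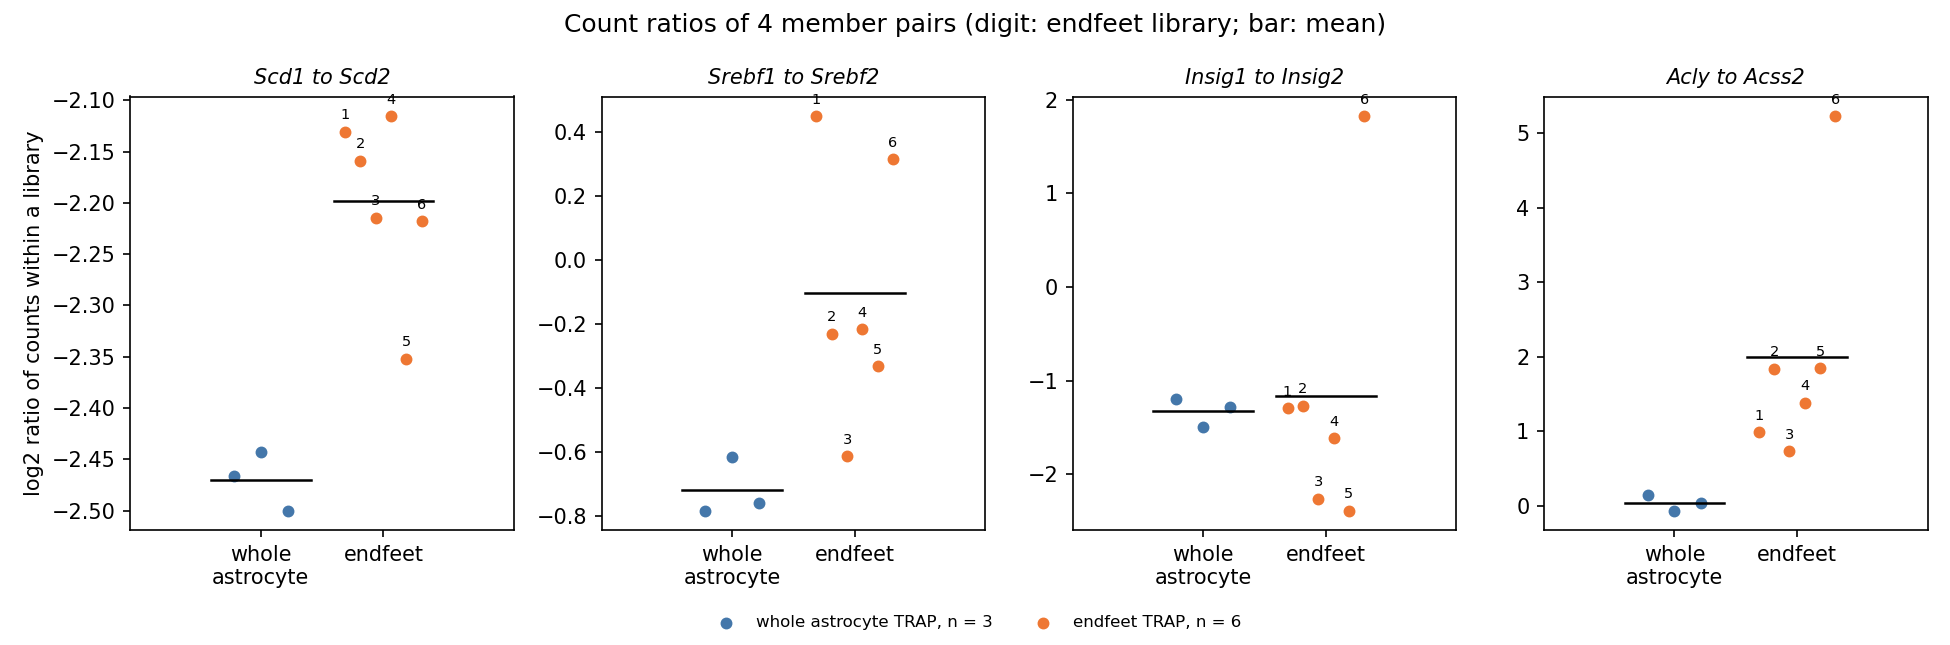
Log2 ratio of counts of 4 pairs of members within each library (y axis, scaled separately for each pair), with whole astrocyte TRAP in blue (n = 3), endfeet TRAP in orange (n = 6, numbered) and means as black bars. The groups do not overlap for Scd1 to Scd2, Srebf1 to Srebf2 (where endfeet library 3 nearly meets whole astrocyte library 2) and Acly to Acss2. Library 6 stands apart in the last 2 panels.

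Levels can be set against each other only per length, here as CPM per kb of transcript averaged over the libraries of a group. In whole astrocyte TRAP the order was led by Scd2 (413 CPM per kb), Hmgcs1 (213), Pmvk (127), Scd1 (84.2) and Msmo1 (70.7). In endfeet TRAP it was led by Scd2 (879), Scd1 (216), Msmo1 (76.1), Hmgcs1 (63.6) and Stard4 (45.9). Stard4 moved from place 19 to place 5, Srebf1 from place 26 to place 12 and Mvd from place 6 to place 28 of the 32.

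By the numbers in the names of the deposited files, endfeet libraries 4 to 6 form a run with the whole astrocyte libraries, and endfeet libraries 1 to 3 form another. The sources used here do not say what these numbers mean. With endfeet libraries 4 to 6 only, 6 members were higher and 6 lower (edgeR), beside 19.5% and 19.7% of all genes. With the run as a covariate 5 members were higher and 3 lower, beside 18.6% and 11.6% of all genes.

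Other genes of the pathway were taken from 3 lists of 57 genes in all, also chosen with earlier results of these data known. Of these, edgeR called 19 higher and 7 lower, and left 31 uncalled, where 20.7% of all genes were higher and 13.9% lower. In sterol efflux, storage and side products 8 of 19 were higher and the other 11 did not pass, with 12 positive and 7 negative log2 fold changes (median 1.02). Lrp1, a receptor for lipoproteins, had 30.1, 26.5 and 37.1 CPM in whole astrocyte TRAP and 186 to 869 CPM (median 516) in endfeet TRAP, or 4.07 higher on the log2 scale (SE 0.454, adjusted p = 2.23e-05 in edgeR). Abca1, which exports cholesterol to apolipoproteins, had 26.3, 21.8 and 24.3 CPM against 89.2 to 256 CPM (median 223), or 2.97 higher on the log2 scale (SE 0.405, adjusted p = 1.05e-04). Ch25h, the cholesterol 25-hydroxylase, had 0 counts in all 3 whole astrocyte libraries and 1.53 to 17.8 CPM in endfeet TRAP. Its mean was at least 76.0-fold higher than a floor of 3 counts per library, taken in the whole astrocyte library where it stands for most CPM.

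Genes that process SREBPs were higher in 4 of 10 cases and lower in 2 (median log2 fold change 1.63), beside 20.7% and 13.9% of all genes. Erlin2, which binds sterol-rich membrane, had 32.9, 26.1 and 32.2 CPM against 51.8 to 283 CPM, or 2.37 higher on the log2 scale (SE 0.467, adjusted p = 0.0017 in edgeR). Mbtps1, the first protease that cuts SREBPs, rose by 2.12 (adjusted p = 0.0058), and Mbtps2, the second protease, by 2.05 (adjusted p = 0.021). Nsf and Ufd1, which serve vesicle fusion and protein degradation in general, had log2 fold changes of -0.98 and -1.25 (adjusted p = 0.020 and 0.032).

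In fatty acid desaturation, elongation and use 7 of 28 were higher and 5 lower (median log2 fold change 0.46), shares near the 20.7% and 13.9% of all genes. Elovl7, an elongase, had 6.11, 10.99 and 9.05 CPM against 265 to 844 CPM, or 5.61 higher on the log2 scale (SE 0.540, adjusted p = 6.02e-06 in edgeR). Acsl1, which activates long-chain fatty acids, gave 2.52 (adjusted p = 2.82e-04) and Acacb, the mitochondrial acetyl-CoA carboxylase, 3.05 (adjusted p = 0.0078). In the other direction, Acsbg1, an acyl-CoA synthetase that is also one of the 20 astrocyte markers, had 792, 844 and 765 CPM against 48.5 to 125 CPM (-3.37 on the log2 scale with an SE of 0.284, and edgeR adjusted p = 2.17e-06). Mid1ip1, which activates acetyl-CoA carboxylase, had -2.95 (adjusted p = 3.27e-05) and Gpam, the first enzyme of glycerolipid synthesis, -2.57 (adjusted p = 9.6e-04). In each of these genes the endfeet libraries did not overlap the whole astrocyte libraries.

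**Figure D5:**
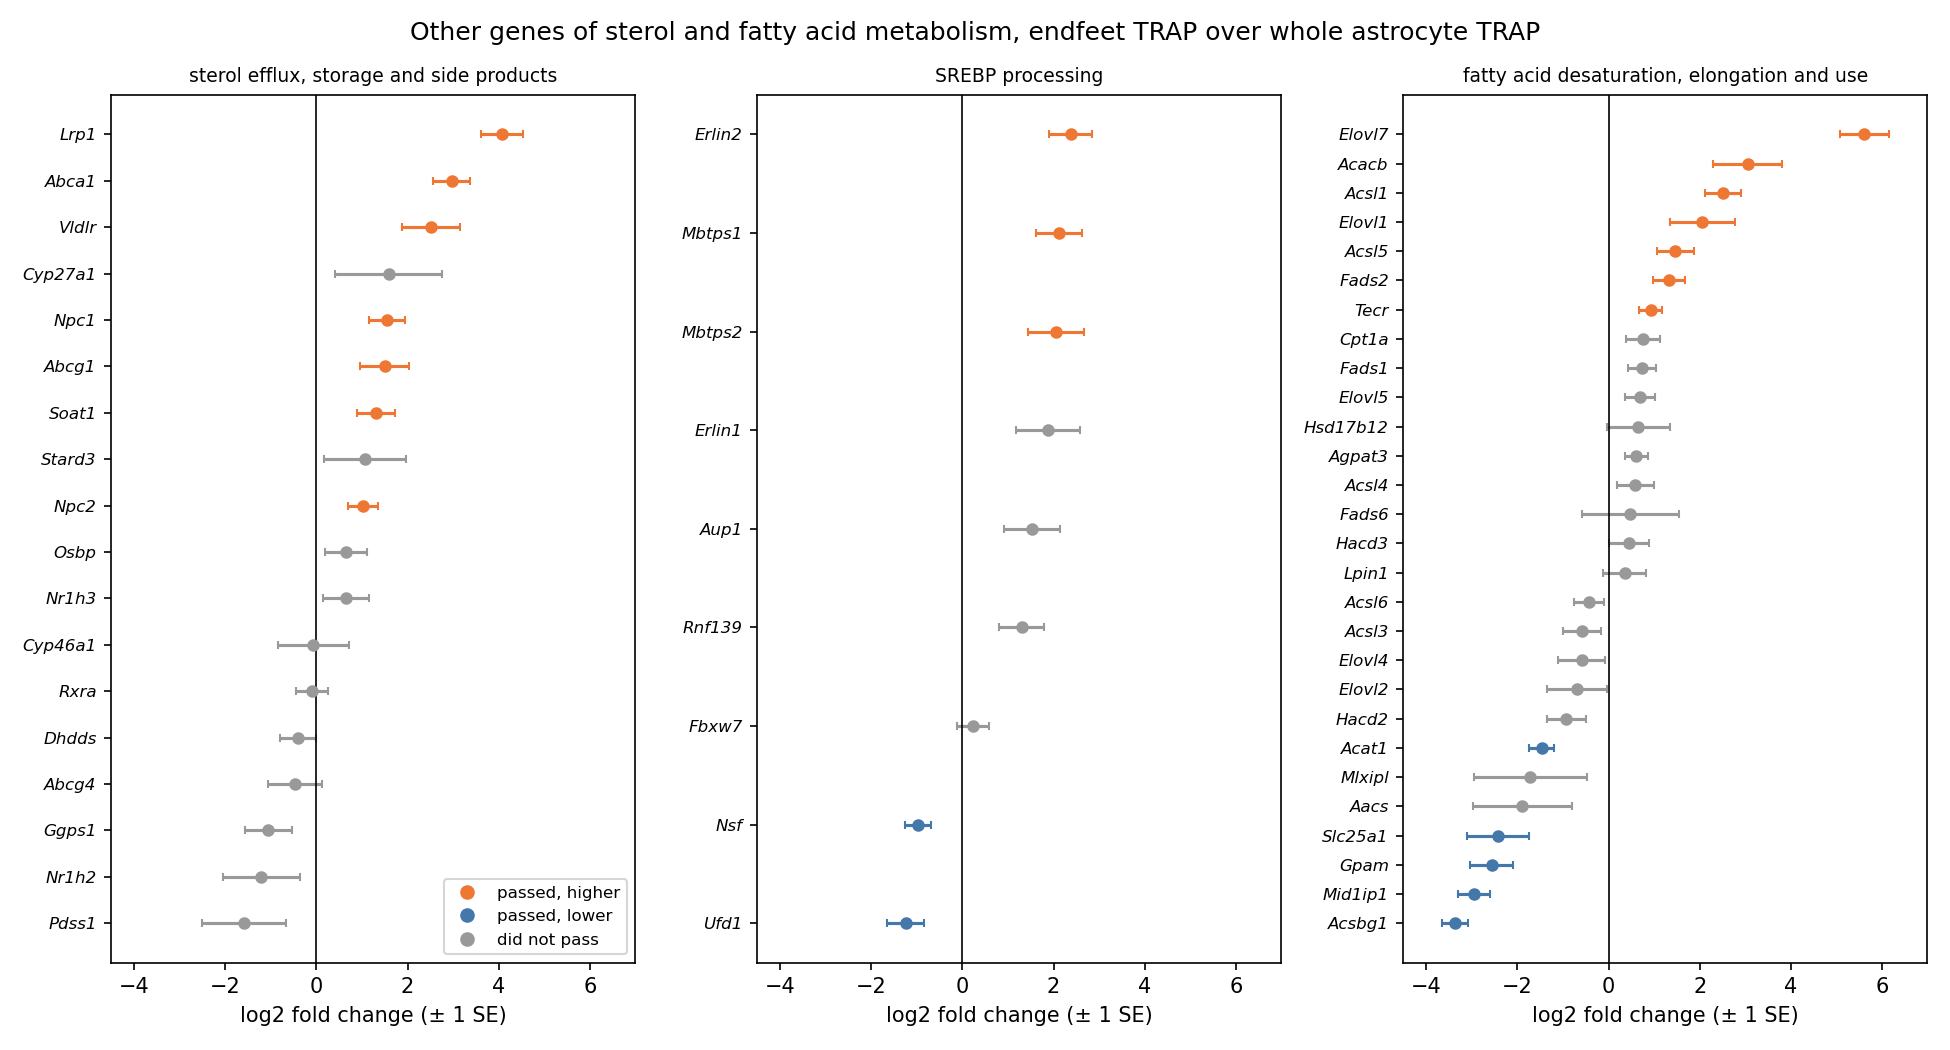
Log2 fold change of endfeet TRAP over whole astrocyte TRAP with 1 SE to each side for other pathway genes of the 3 lists, coloured by whether the gene passed the threshold. Ch25h is left out because its whole astrocyte counts are 0. In the panel of sterol efflux 7 plotted genes passed as higher, and Elovl7 (5.61) is the farthest to the right of the plotted genes.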

How the data were processed

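Ribosome-bound mRNA was sequenced as 50 bp reads from 3 whole astrocyte and 6 endfeet TRAP libraries, with a kit that does not mark strand. Per the study's methods and the submitters' processing notes, the authors aligned reads to mm10 with Bowtie, discarded reads with several alignments, and counted them per Ensembl transcript with HTSeq 0.5.3. The deposited values are raw counts per transcript in each library, without normalization or pooling of libraries. Reads shared by transcripts of a gene were counted for each, so that transcript sums were 2.06 to 2.19 times gene sums. Of 75466 transcripts, 73157 were matched to a gene, and each of the 22072 genes was represented by its transcript with the most CPM over all libraries.

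Counts were scaled by TMM, filtered with filterByExpr, and compared between the groups by edgeR's quasi-likelihood test (edgeR 4.0.16, R 4.3.3) over the 9 libraries, with Benjamini-Hochberg adjustment over 14403 genes and a threshold of 0.05. SEs were derived from the log2 fold change and its F statistic. Libraries are separate animals or pools, and p-values measure the spread between them. The dispersion was 0.014 within whole astrocyte and 0.704 within endfeet TRAP, and the model used a common trend. The steps were tested on simulated data in which both groups had the same dispersion for each gene, so that test does not cover their unequal spread. DESeq2 1.42.0, limma 3.58.1, other scalings, filters, transcript choices and subsets of libraries were the alternatives. Replicate numbers shared by the groups did not pair the libraries (correlation of deviations -0.036, 0.018 and 0.038).

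Windows of 50 bases along each member's transcript were compared with the transcripts of other genes (bwa 0.7.19-r1273), allowing 2 mismatches. Promoters are from RefSeq. The members and the lists were chosen with earlier results of these data known. All members are named, with full statistics for those past the threshold and their pairs. Of each list of other pathway genes, the 3 with the smallest adjusted p in each direction are named. Mbtps2 was added after its values were seen, and 1 gene of these lists is counted but not reported here by name.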

Additional observations from a re-analysis of the deposited data

Results flagged for a closer look

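Among 36 sets of 6 endfeet values (32 members and 4 ratios), 7 held a library whose gap to the nearest other library exceeded the limit of Dixon's test for 6 values at the 95% level, where chance gives about 1 in 20. Gaps and ranges were taken on log2(CPM + 1) for members and on log2 ratios for pairs, while levels of members are printed here as CPM. The flags hold for that log scale only. Hsd17b7 was at 0.375 CPM in endfeet library 1, from 2 counts (gap to the next library 0.67 of the range). The other 6 were all in endfeet library 6, which had the fewest counts. Ebp was at 0.914 CPM there (2 counts, 0.696 of the range), Acss2 at 3.20 CPM (7 counts, 0.687) and Insig2 at 31.99 CPM (70 counts, 0.63), each the lowest endfeet value. Elovl6 was at 202 CPM (443 counts, 0.746), the highest. The log2 ratio of Insig1 to Insig2 was 1.82 (0.734) and that of Acly to Acss2 was 5.23 (0.752), both the highest, and both ratios hold a gene already named. The part of depth in these values was not tested.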

How the results depend on the processing

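Members higher (7) became 12 with limma voom, 4 with no filter on low counts and 2 with the replicate block, and 1 to 9 with 1 library left out. Members lower (4) became 14 with voom and 7 with the block, and 3 to 8 with 1 library left out. The shares of all genes higher were 27.2% with voom, 15.8% without the filter and 17.3% with the block. Those lower were 31.1% with voom and 13.6% with the block. All genes lower (2003) became 4481 with voom and 832 when scaled to the astrocyte markers, and 1171 to 2640 with 1 library left out, while all genes higher (2987) became 1757 to 3375. Other pathway genes higher (19) became 8 to 23, and those lower (7) became 15 with voom, 3 with the astrocyte scaling and 4 to 8 with 1 library left out. That scaling moved the median log2 fold change of all genes from 0.10 to 0.59, voom to -0.29 and the block to -0.22. The Scd1 to Scd2 ratio was 0.24 with endfeet libraries 4 to 6 only (adjusted exact p = 0.133) and 0.26 to 0.30 with 1 library left out. Insig1 to Insig2 ran from -0.44 (without endfeet library 6) to 0.41, and Acly to Acss2 passed when transcripts were summed (1.82, adjusted exact p = 0.0476).

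Of 694 values of single members under an alternative, 582 kept direction and call, 50 gained a call, 44 lost one and 18 changed sign, none of the last from a call over all 9 libraries. These totals include a change of sign entered for Ebp in the fit with at least 10 counts in every library. That fit left Ebp out, which had 2 counts in endfeet library 6, so the entry is not a value of Ebp. With the block, Tm7sf2 was -0.62, Msmo1 -0.26 and Insig1 -0.048. With at least 10 counts in every library, Msmo1 was -0.033 and Ebp -0.86. With voom, Insig1 was -0.090 and Acaca -0.31. Summing transcripts gave -0.018 for Insig2 and -0.050 for Acaca, and the protein-coding transcript, chosen after seeing the data, -0.10 for Acaca. Endfeet libraries 4 to 6 alone gave -0.034 for Insig2, and the astrocyte scaling gave 0.022 for Acly. With 1 library left out, Msmo1 ran from -0.23 to 0.30 (negative without whole astrocyte library 2 or endfeet library 5), Insig2 from -0.042 to 0.34 (negative without the same libraries), Acaca from -0.34 (without endfeet library 5) to 0.81 and Insig1 from -0.070 (without endfeet library 6) to 0.70. The cause of these changes was not tested. Replicate numbers did not pair the libraries, so the block compares libraries that share only a number. Depth limits Idi1 and Fdps, which had 0 counts in at least 1 endfeet library.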
